A study of Mus musculus with 17 samples.

Results

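Enzymes of cholesterol synthesis were followed in mouse plasmacytoid dendritic cells given LIF, CpG DNA or both. The 9 genes are Hmgcs1, Mvd, Idi1, Fdps, Fdft1, Sqle, Lss, Dhcr7 and Hsd17b7. They were taken as the probe sets annotated to exactly 1 of these symbols, which gave 11 of the 21354 single-symbol probe sets and 9 of the 19751 genes measured. Idi1 and Fdft1 had a pair of probe sets each, and the other genes a single one. Total RNA from sorted bone marrow cells of C57BL/6 mice (CD11c-intermediate, B220+, Siglec-H+) was hybridised to 17 single-channel Affymetrix arrays. There were 3 arrays each of CpG-A + LIF, CpG-A, CpG-B + LIF, CpG-B and LIF, and 2 of medium (replicates 1 and 3). All groups were cultured, so medium stands for cells kept without either agent, not for fresh cells. LIF is a gp130 cytokine that activates STAT3. Cells received it at 10 ng/ml. CpG-A and CpG-B, DNA ligands of the endosomal receptor TLR9, were used at 6 µg/ml. The sources give the times in more than one way. The treatment protocol has LIF for 20 to 24 h in all, starting 1 h ahead of CpG in the combined cultures, and CpG for 19 to 23 h. The series' design text has LIF for 1 or 24 h and CpG for 18 to 24 h, so how long the LIF cultures saw LIF is not settled. The labels do not say whether replicates came from separate mice or from pools, so p-values measure the spread between these arrays, which may be technical.

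Cholesterol is built from acetyl-CoA through the mevalonate pathway, which also yields the isoprenoid chains used to anchor proteins in membranes. Squalene made from these units is closed to lanosterol, and a series of reductions and demethylations then gives cholesterol. Transcription of the enzymes is driven mainly by SREBP-2, a factor held in the endoplasmic reticulum by SCAP and INSIG proteins while sterols are plentiful and released by proteases when they fall. In macrophages and dendritic cells, interferon and TLR signals are known to change sterol synthesis, and membrane growth and secretion draw on it.

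The deposited intensities have lost their decimal mark, so each value is known only up to a power of 10, and its log2 only up to multiples of 3.32. Differences between cultures are therefore printed as nearest log2 readings, which lie between -1.66 and 1.66. The level of a gene, and whether it is expressed above background, cannot be read from such values, and neither can the markers that define the cell type be checked for their presence. Each reading has another one, 3.32 away in the opposite direction. Calls were made in limma where the adjusted p was under 0.05. The words higher and lower are kept for called readings up to 1.11 in size (2.15-fold), whose opposite reading would be a 4.64-fold change or more, and called readings beyond that are open in direction. For the 9 genes, the nearest readings of CpG-A and CpG-B against medium added up with the reading between the CpGs in 9 of 9 cases. Readings of this size add up by construction, also where a nearest reading is the wrong one, so this does not check their directions. LIF replicate 2 stood apart from the other LIF arrays in these genes, and readings named in comparisons with LIF alone are given without it too. Where arrays of 2 cultures are said not to overlap, this only describes the 2 or 3 arrays on each side. The share of all genes without overlap is not given.

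Promoter windows were printed for members called with CpG-B, because SREBP-2 and its partner NF-Y are known to bind close to the start of sterol enzyme genes. Whether either factor has a part in the CpG-B readings was not tested. RefSeq windows (GRCm38.p6, 250 bases before to 50 after the start) were found for 6 of the 9 genes: Hmgcs1, Mvd, Idi1, Lss, Dhcr7 and Hsd17b7. Capitals mark 3 motifs searched on both strands, chosen with these sequences in view: TCACNNCAC, a form of the sterol regulatory element, CCAAT, the NF-Y box (ATTGG on the other strand), and CACGTG, an E-box. The windows of Hmgcs1 (chr13:119690101-119690400, plus strand), Hsd17b7 (chr1:169969156-169969455, minus strand), Mvd (chr8:122443373-122443672, minus strand) and Lss (chr10:76531355-76531654, plus strand) read, 5′ to 3′:
Hmgcs1: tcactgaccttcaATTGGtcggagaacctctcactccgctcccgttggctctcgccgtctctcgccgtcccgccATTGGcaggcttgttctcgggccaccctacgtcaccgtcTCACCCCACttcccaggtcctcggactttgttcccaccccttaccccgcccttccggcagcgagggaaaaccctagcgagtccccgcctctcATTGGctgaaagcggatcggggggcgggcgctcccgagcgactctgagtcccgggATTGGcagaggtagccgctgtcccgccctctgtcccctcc
Hsd17b7: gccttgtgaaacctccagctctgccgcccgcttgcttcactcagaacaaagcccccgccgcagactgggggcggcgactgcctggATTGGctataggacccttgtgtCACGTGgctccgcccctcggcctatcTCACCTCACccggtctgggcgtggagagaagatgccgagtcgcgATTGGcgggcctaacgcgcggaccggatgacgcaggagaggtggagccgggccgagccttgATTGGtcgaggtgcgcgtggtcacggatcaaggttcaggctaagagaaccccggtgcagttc
Mvd: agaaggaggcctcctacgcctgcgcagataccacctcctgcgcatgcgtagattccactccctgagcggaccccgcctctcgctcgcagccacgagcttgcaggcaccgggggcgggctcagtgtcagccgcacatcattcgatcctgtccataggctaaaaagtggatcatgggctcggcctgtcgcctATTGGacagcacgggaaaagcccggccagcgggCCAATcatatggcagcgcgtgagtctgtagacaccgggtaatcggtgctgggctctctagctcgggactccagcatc
Lss: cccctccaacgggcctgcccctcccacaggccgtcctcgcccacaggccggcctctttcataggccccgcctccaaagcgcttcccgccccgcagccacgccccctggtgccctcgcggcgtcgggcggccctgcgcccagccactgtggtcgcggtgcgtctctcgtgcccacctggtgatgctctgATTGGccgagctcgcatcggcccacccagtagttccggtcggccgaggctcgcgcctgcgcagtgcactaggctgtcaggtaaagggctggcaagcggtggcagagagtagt

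Hmgcs1 held TCACCCCAC from base -137 relative to the start, and Hsd17b7 held TCACCTCAC from base -117. TCACNNCAC was found in 3.77% of all 32851 windows and in 3 of the 8 windows of the 6 genes. By gene it was in 3 of the 6, the third being Dhcr7, in 1 of its 3 windows. CCAAT was found in 37.4% of all windows and in 6 of the 8 windows of these genes. By gene it was in 6 of the 6, with 4 matches in Hmgcs1, 3 in Hsd17b7, 2 in Mvd and 1 in Lss. CACGTG was found in 7.15% of all windows, in 2 of the 8 windows of these genes and in 2 of the 6 genes, Hsd17b7 and Dhcr7. The motifs were chosen with these sequences in view, so the shares beside those of all windows do not test for an excess. A match of letters describes the window and does not show binding.

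With CpG-A, 3 of the 9 enzymes were called against medium, all higher: Fdps, Hsd17b7 and Hmgcs1. The background there was 16.7% of all genes called and 4.91% called higher. In CpG-B vs medium 6 of the 9 were called, all higher: Fdps, Hsd17b7, Mvd, Lss, Fdft1 and Hmgcs1. The background there was 19.2% of all genes called and 6.94% called higher. All 9 nearest readings lay above 0 with either CpG, with medians of 0.476 for CpG-A and 0.582 for CpG-B, while the medians over all genes were -0.021 and -0.051. Both comparisons rest on the same 2 medium arrays, and the 9 genes can shift together on an array, so their readings are not separate results. The 9 enzymes were also chosen with earlier results of these data known. Their counts and medians beside those of all genes are therefore a description and no test of the pathway. Other measured enzymes of the pathway, given below, were called in both directions. The counts were smaller when an array was left out, except that the CpG-A count was unchanged without CpG-A replicate 2. Without medium replicate 1 they were 0 genes for CpG-A and 2 for CpG-B, and without medium replicate 3 they were 1 and 3. Without CpG-A replicate 1, 2 or 3 the CpG-A count was 1, 3 or 0, and without CpG-B replicate 1, 2 or 3 the CpG-B count was 3, 3 or 4. Sqle with CpG-A and Idi1 with CpG-B, neither of them called, went below 0 in some of these fits, and the other readings stayed above 0.

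**Figure D1:**
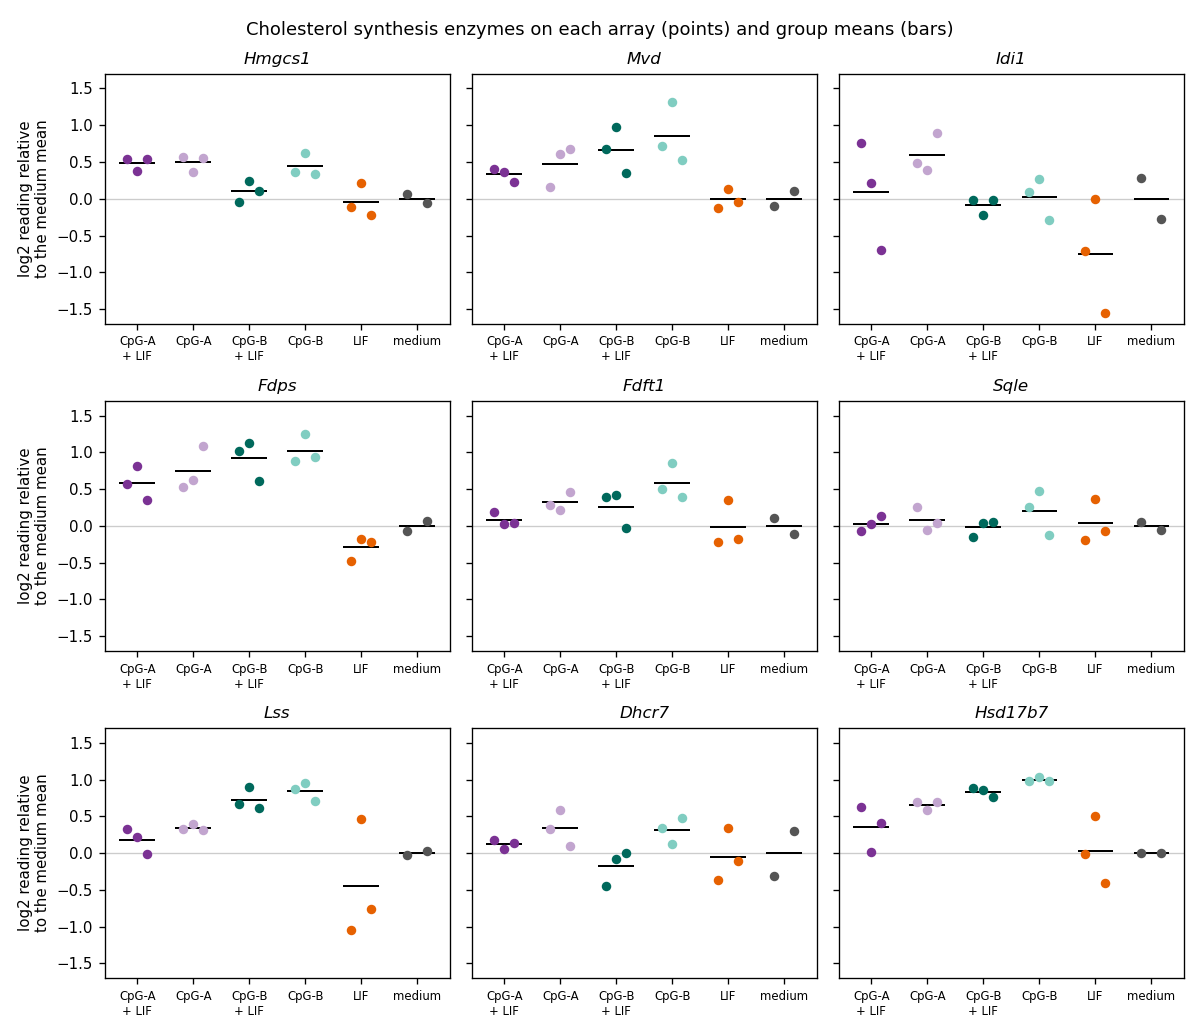
Nearest log2 reading of each of the 9 enzymes on each array, relative to the mean of the medium arrays (y axis, log2 units), in the 6 cultures (x axis), with points for arrays and bars for group means. The CpG-A and CpG-B arrays of Fdps and Hsd17b7 lie above both medium arrays, and the LIF arrays of Lss and Idi1 are spread widely.

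The early steps lead from acetyl-CoA units to farnesyl diphosphate. Hmgcs1, the cytosolic synthase that makes HMG-CoA, read 0.57, 0.37 and 0.56 on the CpG-A arrays (replicates 1 to 3), 0.36, 0.62 and 0.34 on the CpG-B arrays and 0.06 and -0.06 on the medium arrays, as log2 readings relative to the medium mean. Both sets of CpG arrays lay above the medium arrays without overlap. CpG-A vs medium gave 0.50 ± 0.15 (SE, n = 3 and 2; limma adjusted p = 0.0276) and CpG-B vs medium gave 0.44 ± 0.15 (limma adjusted p = 0.0471). Both calls sat near the threshold: the CpG-A call was lost without CpG-A replicate 1 or 3 and without either medium array (limma adjusted p = 0.076 to 0.186), and the CpG-B call was lost without any 1 of the 5 arrays compared (limma adjusted p = 0.0519 to 0.246). The readings themselves stayed between 0.44 and 0.56 for CpG-A and between 0.35 and 0.50 for CpG-B.

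Mvd, which decarboxylates mevalonate diphosphate to isopentenyl diphosphate, read 0.15, 0.60 and 0.67 with CpG-A, 0.72, 1.32 and 0.53 with CpG-B and -0.10 and 0.10 in medium. CpG-B replicate 2 was the highest of these arrays, and both CpG groups lay above medium. The CpG-B difference was 0.85 ± 0.22, or 1.81-fold (limma adjusted p = 0.00834), and the call was lost without medium replicate 1 (0.75, limma adjusted p = 0.0952). The CpG-A difference of 0.48 ± 0.22 was not called (limma adjusted p = 0.166; 95% interval 0.02 to 0.93, not adjusted for the number of genes).

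Idi1, the isomerase that turns isopentenyl diphosphate into dimethylallyl diphosphate, gave different values on its pair of probe sets. The tested probe set, whose neighbours by identifier lie on chromosome 13 as Idi1 itself does, read 0.49, 0.39 and 0.89 with CpG-A, 0.09, 0.27 and -0.29 with CpG-B and 0.27 and -0.27 in medium. It was not called with CpG-A (0.59 ± 0.37, limma adjusted p = 0.359) or with CpG-B (0.02 ± 0.37, limma adjusted p = 0.98), and its residual standard deviation of 0.50 was the largest of the 11 probe sets. The second probe set read 1.27, 1.14 and 1.32 with CpG-A, 1.10, 1.16 and 0.93 with CpG-B and 0.01 and -0.01 in medium. Its 20 nearest annotated neighbours by identifier belong to genes of chromosome 2. Over 21333 probe sets, 97.2% have at least 10 of 20 such neighbours on their own gene's chromosome, so identifiers mostly follow the genome and the second probe set sits away from Idi1 in that order. Which transcript it reads was not tested. In the fit over all single-symbol probe sets it was called with CpG-A, open in direction (1.24 ± 0.18, or -2.08, limma adjusted p = 0.000114), and with CpG-B, higher (1.07 ± 0.18, limma adjusted p = 0.000359).

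**Figure D2:**
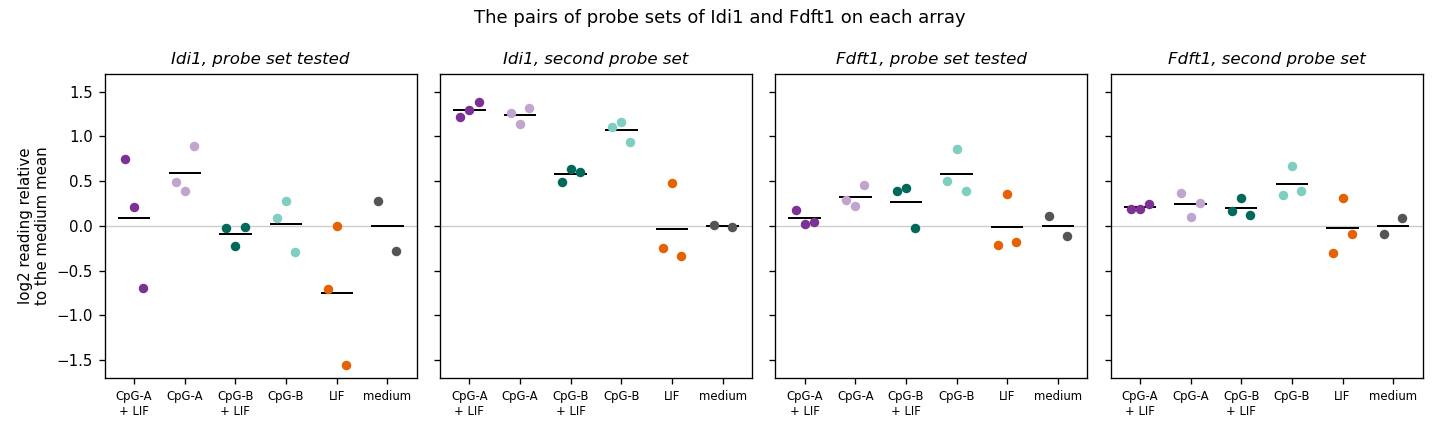
Nearest log2 readings relative to the medium mean (y axis, log2 units) for both probe sets of Idi1 and both of Fdft1 on each array, by culture (x axis), with bars at group means. The second Idi1 probe set lies between 1.14 and 1.32 with CpG-A, while the tested one lies between 0.39 and 0.89, and the Fdft1 pair follow each other.

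Fdps makes farnesyl diphosphate, the branch point between sterols and protein prenylation. It read 0.52, 0.62 and 1.08 with CpG-A, 0.88, 1.25 and 0.94 with CpG-B and -0.07 and 0.07 in medium. All CpG arrays of this gene lay above both medium arrays. CpG-B vs medium gave 1.02 ± 0.19, or 2.03-fold (limma adjusted p = 0.000787), and this call held without each array in turn. CpG-A vs medium gave 0.74 ± 0.19, or 1.67-fold (limma adjusted p = 0.0113), and was lost without CpG-A replicate 3 (0.57, limma adjusted p = 0.0583) or medium replicate 1 (0.67, limma adjusted p = 0.109).

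The middle steps take farnesyl diphosphate to lanosterol. Fdft1, the squalene synthase, read 0.29, 0.22 and 0.46 with CpG-A, 0.50, 0.86 and 0.39 with CpG-B and 0.11 and -0.11 in medium. Both CpG groups lay above medium. The CpG-B difference was 0.58 ± 0.19 (limma adjusted p = 0.0354), and the CpG-A difference of 0.32 ± 0.19 was not called (limma adjusted p = 0.308). The second Fdft1 probe set gave 0.47 ± 0.16 with CpG-B, just short of the threshold (limma adjusted p = 0.0537), and the call on the tested one was lost without CpG-B replicate 1 or 2 or either medium array (limma adjusted p = 0.0535 to 0.249).

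Sqle, squalene monooxygenase and a rate-limiting step of the sterol branch, stood out by its narrow range. It read 0.26, -0.05 and 0.04 with CpG-A, 0.26, 0.47 and -0.13 with CpG-B and 0.05 and -0.05 in medium. The groups overlapped, and neither CpG was called: CpG-A gave 0.08 ± 0.18 (limma adjusted p = 0.847; 95% interval -0.30 to 0.46) and CpG-B gave 0.20 ± 0.18 (limma adjusted p = 0.524; -0.18 to 0.58). All 17 arrays of Sqle fell within a span of 0.67 on the log2 scale, the smallest of the 11 probe sets, whose spans reached 2.44 for the tested probe set of Idi1.

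Lss, which closes oxidosqualene to lanosterol, read 0.33, 0.39 and 0.32 with CpG-A, 0.87, 0.96 and 0.71 with CpG-B and -0.03 and 0.03 in medium. The CpG-A arrays lay below the CpG-B arrays and above medium, with no overlap. CpG-B vs medium gave 0.85 ± 0.28, or 1.80-fold (limma adjusted p = 0.041). Its standard error comes from all 17 arrays, among them the 3 LIF arrays, which ran from -1.05 to 0.47 for this gene. The call was lost without any 1 of the 5 arrays compared (limma adjusted p = 0.0557 to 0.178), with readings between 0.79 and 0.92. CpG-A vs medium gave 0.34 ± 0.28 and was not called (limma adjusted p = 0.507).

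The late steps turn lanosterol into cholesterol. Hsd17b7, the 3-keto-sterol reductase used when methyl groups are removed at C-4, read 0.69, 0.59 and 0.70 with CpG-A, 0.98, 1.04 and 0.98 with CpG-B and 0.00 and 0.00 in medium. Within each of these cultures the arrays lay close together, with CpG-A below CpG-B and above medium. Its LIF arrays (-0.41 to 0.51) and CpG-A + LIF arrays (0.01 to 0.63) were spread more widely. CpG-B vs medium gave 1.00 ± 0.20, or 2.00-fold (limma adjusted p = 0.00138), a call that held without each array in turn. CpG-A vs medium gave 0.66 ± 0.20, or 1.58-fold (limma adjusted p = 0.0304), lost without CpG-A replicate 1 or 3 or either medium array (limma adjusted p = 0.0732 to 0.141). Dhcr7, the reductase of the last step from 7-dehydrocholesterol, read 0.33, 0.59 and 0.09 with CpG-A, 0.34, 0.12 and 0.47 with CpG-B and -0.31 and 0.31 in medium. Its 2 medium arrays were far apart and overlapped both CpG groups. Neither difference was called (CpG-A 0.34 ± 0.22, limma adjusted p = 0.359; CpG-B 0.31 ± 0.22, limma adjusted p = 0.384).

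**Figure D3:**
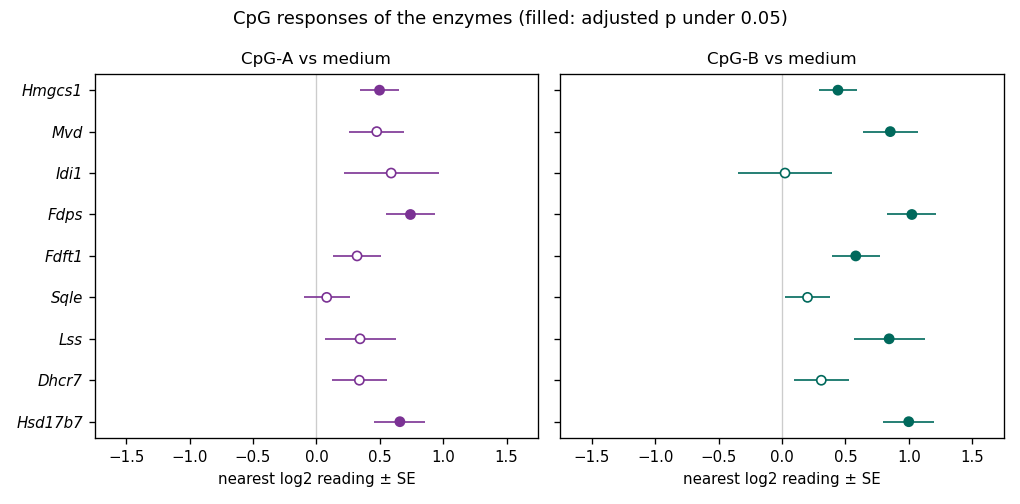
Nearest log2 reading ± SE (x axis) of the 9 enzymes (y axis, in pathway order) in CpG-A vs medium (left) and CpG-B vs medium (right), with filled points where the adjusted p was under 0.05. All points lie above 0, and 3 are filled for CpG-A and 6 for CpG-B.

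CpG-A vs CpG-B asked whether the classes of oligonucleotide differ in this pathway, with 3 arrays on each side. Of the 9 genes 0 were called by limma, also 0 at an unadjusted p under 0.05, while 13.0% of all genes were called. The readings of Lss (-0.50 ± 0.25, limma adjusted p = 0.234, 95% interval -1.03 to 0.03) and Hsd17b7 (-0.34 ± 0.18, limma adjusted p = 0.268, -0.72 to 0.04) lay below 0, without overlap of the arrays. That of Idi1 (0.57 ± 0.33, limma adjusted p = 0.331, -0.14 to 1.27) lay above 0, again without overlap. Groups of 3 arrays can also separate without a true difference, and the share of all genes that did so is not given. The readings of Hmgcs1 (0.06 ± 0.13, -0.23 to 0.34) and Dhcr7 (0.03 ± 0.19, -0.38 to 0.43) lay near 0. The numbers of calls against medium, 3 with CpG-A and 6 with CpG-B, therefore do not show a difference between the CpGs. Lss was called in the fit restricted to the CpG-A and CpG-B arrays (limma adjusted p = 0.0289), in which the LIF arrays have no part.

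LIF on its own called 0 of the 9 genes in LIF vs medium by limma, also 0 at an unadjusted p under 0.05, against 0.810% of all genes called. Readings ran from -0.75 ± 0.37 for Idi1 to 0.03 ± 0.18 for Sqle, with a median of -0.041 (all genes -0.024). LIF replicate 2 stood apart in this pathway: the median of the 9 readings against medium was 0.34 there with 7 above 0, but -0.22 and -0.21 in replicates 1 and 3 with 0 above 0. Lss shows it most, at -1.05, 0.47 and -0.76 on LIF replicates 1, 2 and 3, against -0.03 and 0.03 in medium. The difference of -0.45 ± 0.28 was not called with all 3 arrays (limma adjusted p = 0.647), and without LIF replicate 2 it was -0.91 (limma adjusted p = 0.0091). LIF replicate 2 was singled out from the readings of these same genes, Lss among them, so the call without it is not independent support. That array also had the lowest estimated weight of the 17, at 0.684 where 1 is average. Idi1 read -0.71, -0.01 and -1.55 on the same LIF arrays, against 0.27 and -0.27 in medium. Its reading without LIF replicate 2 was -1.13, also not called (limma adjusted p = 0.234), and that of Sqle was -0.13. Fdps read -0.48, -0.18 and -0.21 with LIF, below both medium arrays, with a reading of -0.29 ± 0.19 that was not called (limma adjusted p = 0.676; -0.34 without LIF replicate 2).

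LIF added to CpG asked whether LIF alters the CpG-treated cells. In CpG-A + LIF vs CpG-A, 0 of the 9 genes were called by limma, 0 at an unadjusted p under 0.05, and 0.00506% of all genes were called, which is 1 gene. In CpG-B + LIF vs CpG-B, 0 of the 9 were called, 2 at an unadjusted p under 0.05, and 0.0608% of all genes were called. All 9 nearest readings lay below 0 in both comparisons, which share no arrays, with medians of -0.172 under CpG-A and -0.187 under CpG-B (all genes 0.004 in each, with 49.0% of readings below 0 in each). The readings ran from -0.50 to -0.01 under CpG-A and from -0.49 to -0.10 under CpG-B. The 9 genes can shift together on an array, as they did on the LIF arrays, so these are not 9 separate results. They were also chosen with earlier results of these data known, so the shared sign is no independent support for an effect of LIF. Hmgcs1 read -0.04, 0.24 and 0.11 with CpG-B + LIF, against 0.36, 0.62 and 0.34 with CpG-B, without overlap (-0.34 ± 0.13, under 0.05 only before adjustment; limma adjusted p = 0.534). Dhcr7 read -0.45, -0.08 and 0.00 with CpG-B + LIF, against 0.34, 0.12 and 0.47 with CpG-B, again without overlap (-0.49 ± 0.19, under 0.05 only before adjustment; limma adjusted p = 0.532). Arrays of CpG-B + LIF and CpG-B with the same replicate number deviated together over all genes (r = 0.126 to 0.243 over 3 pairs). Taken as pairs, 6 of the 9 enzymes read below 0 in 3 of 3 pairs (Hmgcs1, Mvd, Fdft1, Lss, Dhcr7 and Hsd17b7), where 15.8% of all genes did. With the replicate number as a block, 0 of the 9 were called, with 0.0962% of all genes called (19 genes, against 12 without it), and in a block fit of these 6 arrays alone 0 of the 9 and 0 of all genes were called by limma. Dhcr7 had the lowest adjusted p of the 9 in that fit, at -0.49 ± 0.14 (limma adjusted p = 0.313). Under CpG-A, Hmgcs1 read 0.55, 0.38 and 0.54 with LIF, against 0.57, 0.37 and 0.56 without it (-0.01 ± 0.13, 95% interval -0.29 to 0.27).

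**Figure D4:**
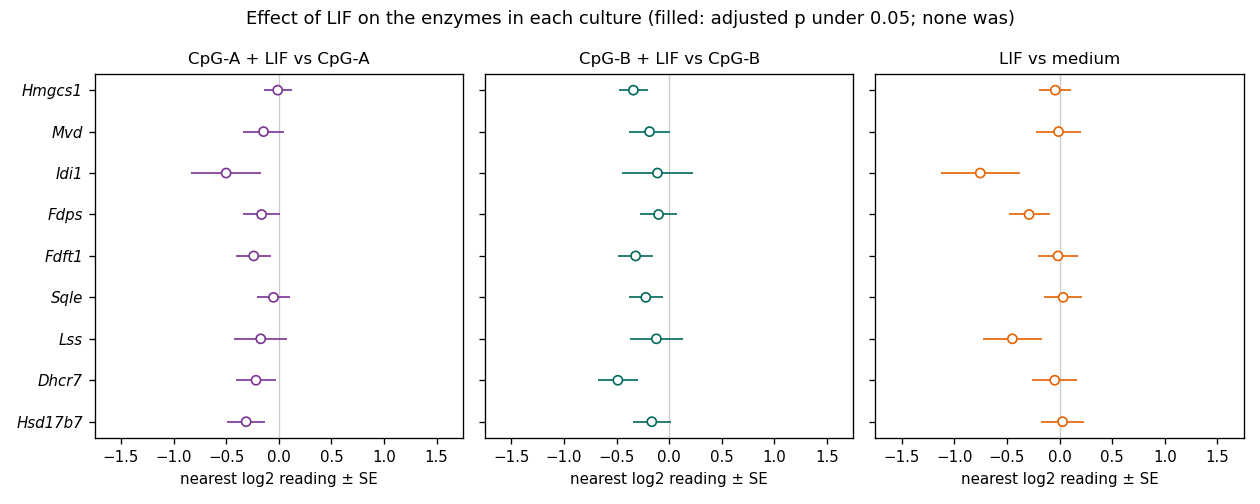
Nearest log2 reading ± SE (x axis) of the effect of LIF on the 9 enzymes (y axis) in CpG-A cultures (left), CpG-B cultures (middle) and medium (right), with filled points where the adjusted p was under 0.05. All points lie below 0 in the CpG cultures, and no point is filled in any of the 3 panels.

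Tests of the difference between LIF effects called none of the enzymes. For the LIF effect with CpG-A minus that in medium, 0 of 9 were called by limma and 0 at an unadjusted p under 0.05 (all genes 0.0506%). For the effect with CpG-B minus that in medium, 0 of 9 were called and 0 at an unadjusted p under 0.05 (all genes 0.137%). Without LIF replicate 2 both counts were again 0. Lss then had differences of 0.73 (CpG-A minus medium) and 0.78 (CpG-B minus medium), where all 3 LIF arrays gave 0.28 and 0.33. Idi1 had 0.63 and 1.02 without it, where all 3 gave 0.25 and 0.64. For the effect with CpG-A minus that with CpG-B, 0 of 9 were called and 0 at an unadjusted p under 0.05, and 0.00% of all genes were called, with 1009 genes at an unadjusted p under 0.05. Hmgcs1, whose LIF readings differed between the CpGs, had a difference of 0.33 ± 0.19 (limma adjusted p = 0.988).

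In LIF-treated cells the CpG responses were read against LIF alone. CpG-B + LIF vs LIF called 4 of the 9 genes (all genes 25.4%). Hsd17b7 read 0.88, 0.85 and 0.77 with CpG-B + LIF, against -0.01, 0.51 and -0.41 with LIF, a difference of 0.81 ± 0.18 higher (limma adjusted p = 0.00242). Mvd read 0.68, 0.98 and 0.34 with CpG-B + LIF, against -0.12, 0.14 and -0.04 with LIF, a difference of 0.68 ± 0.19 higher (limma adjusted p = 0.0141). For both genes every CpG-B + LIF array lay above every LIF array. Fdps gave 1.21 ± 0.17 (or -2.11, limma adjusted p = 3.74e-05) and Lss 1.17 ± 0.25 (or -2.15, limma adjusted p = 0.00162), both open in direction. Without LIF replicate 2 these calls were again made, at 1.05 for Hsd17b7, 0.75 for Mvd, 1.27 for Fdps and 1.63 for Lss, the last near the largest size a nearest reading can have. The Mvd call was lost without CpG-B + LIF replicate 2 or LIF replicate 1 (limma adjusted p = 0.0852 and 0.0553), and without LIF replicate 2 the count was 5, with Idi1 added (1.04).

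CpG-A + LIF vs LIF called 2 of the 9 genes (all genes 17.4%), Fdps and Hmgcs1. Fdps read 0.57, 0.81 and 0.35 with CpG-A + LIF, against -0.48, -0.18 and -0.21 with LIF, a difference of 0.87 ± 0.17 higher (limma adjusted p = 0.00138). Hmgcs1 read 0.55, 0.38 and 0.54 with CpG-A + LIF, against -0.12, 0.22 and -0.22 with LIF, a difference of 0.53 ± 0.13 higher (limma adjusted p = 0.0089). Neither gene's groups overlapped. Without LIF replicate 2 Fdps read 0.92 and Hmgcs1 0.66, both again called, and the count was 5, with Hsd17b7 (0.56), Lss (1.08) and Idi1 (1.22) added, and without LIF replicate 3 it was 1, the Hmgcs1 call being lost (limma adjusted p = 0.0557). CpG-A + LIF vs CpG-B + LIF called 0 of the 9 genes by limma (3 at an unadjusted p under 0.05; all genes 16.9%). Hmgcs1 lay above 0 at 0.39 ± 0.13 (limma adjusted p = 0.0568), and Hsd17b7 below 0 at -0.49 ± 0.18 (limma adjusted p = 0.0768), each without overlap of its arrays. The second Idi1 probe set was called higher with CpG-A + LIF, at 0.72 ± 0.16 (limma adjusted p = 0.00455).

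Other enzymes of the pathway were called in both directions. Counts in this and the next lists stand against 16.7% of all genes called with CpG-A and 19.2% with CpG-B. Of 12 further enzymes listed, 9 were measured, and the others were not analysed here. In CpG-A vs medium 4 of the 9 were called, 2 higher and 2 lower (median 0.112), and in CpG-B vs medium 2, 1 higher and 1 lower (median 0.062). Cyp51, the lanosterol 14-alpha-demethylase, read 0.45 ± 0.14 higher with CpG-A and 0.49 ± 0.14 higher with CpG-B (limma adjusted p = 0.036 and 0.02). Msmo1, the C-4 methylsterol oxidase that acts in the same stretch as Hsd17b7, read 0.72 ± 0.19 higher with CpG-A (limma adjusted p = 0.0108). Lbr and Tm7sf2, both sterol C-14 reductases, went the other way. Lbr, also the lamin B receptor of the nuclear envelope, read -0.91 ± 0.14 with CpG-A and -0.84 ± 0.14 with CpG-B (limma adjusted p = 0.00015 and 0.000268), and Tm7sf2 read -0.85 ± 0.18 with CpG-A (limma adjusted p = 0.00183). 

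The list on SREBP regulation and lipoprotein uptake was mixed as well. Of 10 listed, 7 were measured (Srebf1, Srebf2, Scap, Insig1, Insig2, Mbtps1 and Stard4, a sterol carrier), and the others were not analysed here. In CpG-B vs medium 3 were called, 2 higher and 1 lower, and in CpG-A vs medium 1, higher. Scap, the escort of SREBP, read 0.52 ± 0.13 higher with CpG-A and 0.50 ± 0.13 higher with CpG-B (limma adjusted p = 0.00613 and 0.00808). Mbtps1, the site-1 protease that releases SREBP, read 0.70 ± 0.14 higher with CpG-B (limma adjusted p = 0.00142) and lower in CpG-A vs CpG-B, at -0.64 ± 0.13 (limma adjusted p = 0.00192). Srebf2, which encodes SREBP-2, read -0.43 ± 0.11 with CpG-B (limma adjusted p = 0.00881) and was not called with CpG-A (-0.23 ± 0.11, limma adjusted p = 0.19). Insig1, an SREBP target that retains the SCAP complex, was not called with CpG-A (0.16 ± 0.17) or CpG-B (0.12 ± 0.17).

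Fatty acid synthesis is driven mainly by SREBP-1. Of its 12 genes 4 were called with CpG-A against medium, 0 higher, 3 lower and 1 open (median -0.413), with Fads1 the open one, and 2 in CpG-B vs medium, both higher (median -0.040). Fasn, the fatty acid synthase, read -0.55 ± 0.13 with CpG-A and 0.99 ± 0.13 higher with CpG-B (limma adjusted p = 0.00471 and 2.37e-05), and CpG-A vs CpG-B gave -1.54 ± 0.11 (or 1.78, limma adjusted p = 7.64e-07). Acaca, acetyl-CoA carboxylase, read 0.94 ± 0.25 higher with CpG-B (limma adjusted p = 0.0111). With CpG-A, Acss2, which makes acetyl-CoA from acetate, read -0.53 ± 0.14 and Fads2, a fatty acid desaturase, -0.44 ± 0.14 (limma adjusted p = 0.00983 and 0.0349). The sterol and fatty acid genes were not tested against each other.

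**Figure D5:**
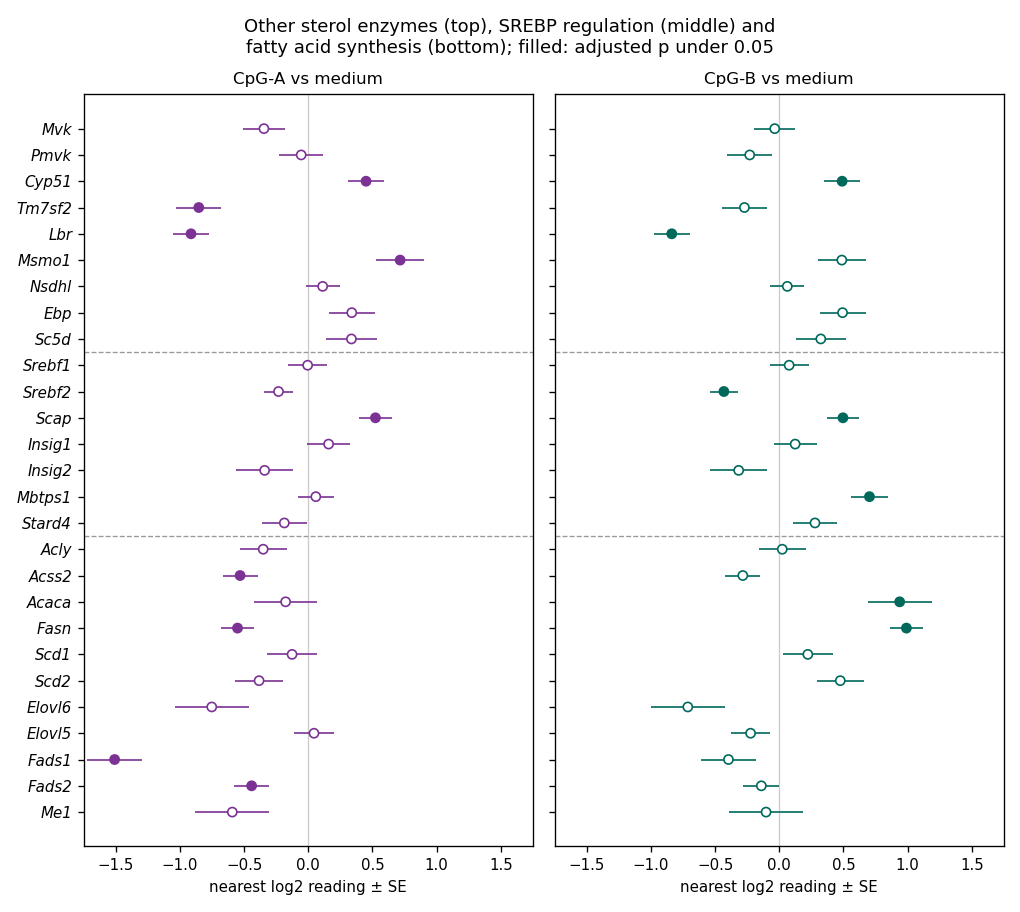
Nearest log2 reading ± SE (x axis) of the other measured sterol enzymes (top block), the 7 genes of SREBP regulation and sterol transport (middle block, with Srebf1, which is also on the fatty acid list) and the fatty acid synthesis genes (bottom block) in CpG-A vs medium (left) and CpG-B vs medium (right), with filled points where the adjusted p was under 0.05. Fasn lies at -0.55 for CpG-A and 0.99 for CpG-B, while Lbr lies below 0 for both.

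Genes of sterol efflux, storage and oxysterols had 6 of 12 called with CpG-A (2 higher, 4 open) and 6 with CpG-B (2 higher, 1 lower, 3 open). Npc2, which carries cholesterol inside lysosomes, read 0.82 ± 0.12 higher with CpG-A and 0.69 ± 0.12 higher with CpG-B (limma adjusted p = 0.000112 and 0.000443). Its partner Npc1 read -0.39 ± 0.12 with CpG-B (limma adjusted p = 0.0314). Nr1h3, the sterol-sensing receptor LXR-alpha, read 0.72 ± 0.21 higher with CpG-B (limma adjusted p = 0.0184) and 1.59 ± 0.21 (or -1.73) with CpG-A. Cyp7b1, an oxysterol hydroxylase, read 0.88 ± 0.26 higher with CpG-A (limma adjusted p = 0.0242). Abca1, the cholesterol exporter, and Ch25h, the interferon-induced cholesterol 25-hydroxylase, were not called with CpG-A (0.35 ± 0.19 and 0.14 ± 0.19) or CpG-B (0.27 ± 0.19 and 0.23 ± 0.19). A true change near 10-fold would give the same readings.

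Of 10 measured genes that use isoprenoids, 2 were called with CpG-A, where 16.7% of all genes were called, and 3 with CpG-B, where 19.2% were, so the CpG-A count is near the background. Nus1, a subunit of the dolichol chain-making enzyme, read 0.86 ± 0.15 higher with CpG-A (limma adjusted p = 0.00036) and 1.34 ± 0.15 (or -1.98) with CpG-B. Rabggtb, a subunit of the enzyme that attaches geranylgeranyl groups to Rab proteins, read 0.84 ± 0.16 higher with CpG-B (limma adjusted p = 0.000774). Fnta, the shared subunit of the other prenyl transferases, read -0.67 ± 0.14 with CpG-A and -0.57 ± 0.14 with CpG-B (limma adjusted p = 0.00238 and 0.00761).

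Likeness in pattern was taken as the root mean square distance between a gene's 5 readings against medium and the circular mean of the members, which was 0.25 with CpG-A + LIF, 0.45 with CpG-A, 0.35 with CpG-B + LIF, 0.59 with CpG-B and -0.16 with LIF. Fdft1 was the closest member, at 0.12, and Idi1 the farthest, at 0.43, where the median gene lay at 0.475. The 10 closest genes outside the members, each nearer to this mean than any member, were Copa, Rce1, Sec61a1, Ciao2b, Zdhhc5, Srp9, Sorl1, Psmd9, Ccdc90b and Atl1, at 0.08 to 0.10. Copa encodes a coat protein of Golgi vesicles, Sec61a1 the channel for proteins entering the endoplasmic reticulum, and Rce1 the protease that trims prenylated proteins.

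Genes of other processes and cell types were also called with the CpGs, against 16.7% of all genes called with CpG-A and 19.2% with CpG-B. Among proliferation genes 7 of 19 were called with CpG-A (0 higher, 6 lower, 1 open) and 12 with CpG-B (3 higher, 2 lower, 7 open). Lower with CpG-A were Mki67, Ccna2, Cdc20, Kif11, Plk1 and Aurkb, genes of the cell cycle and mitosis, and Cdc20 and Kif11 were lower with CpG-B too. Higher with CpG-B were Mcm5, Mcm7 and Pcna, genes of DNA replication. Of 10 measured plasmacytoid dendritic cell markers, 5 were called with CpG-A (1 higher, 2 lower, 2 open) and 7 with CpG-B (1 higher, 2 lower, 4 open). Ly6d was higher with both CpGs, Siglech and Tcf4 were lower with CpG-A, and Spib and Irf8 were lower with CpG-B.

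Markers of other cell types were called with CpG-A and CpG-B in 3 and 1 of 7 for B cells, 3 and 4 of 8 for macrophages or monocytes, 2 and 3 of 8 for neutrophils, 4 and 6 of 8 for conventional dendritic cells, 0 and 2 of 6 for T or NK cells and 0 and 1 of 3 for erythroid cells. The shares for T or NK and erythroid cells with CpG-A and for B cells with CpG-B lay below those of all genes, and the others above, in short lists whose shares were not tested. Within the limit on direction, Cd79a, Cd22, Ly6g and Sirpa were lower with CpG-A. With CpG-B, Fcgr1, Ly6g, Clec9a, Itgax and Batf3 were lower and Cd209a and Il2rb higher. With LIF vs medium 0 of the proliferation genes and 0 of these markers were called by limma. Summed marker levels cannot be formed without the decimal mark, and the part of cell composition in the readings of the sterol enzymes was not tested. In RNA from whole cultures, fewer cells of a type and less RNA per cell cannot be told apart.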

How the data were processed

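Each array measured total RNA of 1 culture. Per the submitters' processing notes, the authors made the values with RMA, a method of background correction, normalization across arrays and summary by probe set. The deposited score of a probe set holds the digits of such an intensity without its decimal mark: 419560 cells, of which 1 kept the mark. No build or RMA version is given in the sources used here. From these scores, circular group means over a log2 period of 3.32 were fitted in limma 3.58.1 (R 4.3.3), with 1 coefficient per group over 17 arrays (11 residual degrees of freedom) and Benjamini-Hochberg adjustment over 19751 genes. A gene was represented by its single-symbol probe set with the most listed accessions, ties going to the lowest identifier. No filter on dim probe sets is possible, and precision is limited by how many arrays each culture has. The fit was also run on simulated data, but the outcome is not given here, so that run is no support for the readings or their directions.

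The 9 enzymes, the other lists, the limit on direction and the tests were chosen with earlier results of these data known. Named besides the 9 are listed genes called in CpG-A or CpG-B vs medium within the limit on direction, Insig1, Srebf2, Abca1, Ch25h, and the 10 genes nearest in pattern. Fads1 was named after its value was seen. Alternatives changed the probe set, the samples, array weights, centring, the variance moderation, the handling of the lost mark and the replicate number as a block. Replicate numbers were taken to pair 2 cultures where each of 3 same-numbered pairs correlated over 0.1 in their deviations from the group means, which held for CpG-B + LIF and CpG-B (0.126 to 0.243). Promoter windows came from RefSeq.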

Additional observations from a re-analysis of the deposited data

How the results depend on the processing

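Over 1638 values of the 9 genes under the alternatives, 1581 kept their direction and their side of the threshold or were called in neither fit, 36 lost their call and 21 gained one. Signs changed in 79 values, called in neither fit. Same-numbered arrays correlated in their deviations at -0.0796 to 0.243 over 40 pairs (median 0.016), and 11 of 17 arrays correlated best with their own number. By the rule that every one of 3 pairs exceeds 0.1, the numbers paired the arrays in CpG-B + LIF vs CpG-B and in no other comparison of 2 cultures. There the block, and a block fit of the 6 arrays alone, chosen after seeing the data, each called 0 members. With the replicate number as a block, CpG-B vs medium called 3 members instead of 6 (Hmgcs1, Fdft1 and Lss were lost) and CpG-A vs medium 2 instead of 3. CpG-A + LIF vs CpG-B + LIF called 1 member instead of 0 with all single-symbol probe sets, with the fewest-accession probe set (Idi1 in both), with array weights (Hmgcs1) and with only the groups compared (Lss). CpG-A vs CpG-B called 1, Lss, with only the groups compared. With 1 array left out, members called ranged from 0 to 3 in CpG-A vs medium, 2 to 4 in CpG-B vs medium, 0 to 1 in LIF vs medium, 1 to 5 in CpG-A + LIF vs LIF, 3 to 5 in CpG-B + LIF vs LIF and 0 to 1 in CpG-A + LIF vs CpG-B + LIF. The calls of all genes without 1 medium array were as few as 2128 instead of 3300 in CpG-A vs medium and 2451 instead of 3795 in CpG-B vs medium. Over all alternatives, calls of all genes ranged from 16 to 216 in LIF vs medium (main 160), 0 to 12 in CpG-A + LIF vs CpG-A (main 1), 0 to 25 in CpG-B + LIF vs CpG-B (main 12), 0 to 36, 5 to 53 and 0 to 8 in the differences of LIF effects (CpG-A minus medium, main 10; CpG-B minus medium, main 27; CpG-A minus CpG-B, main 0). Fits without an array have fewer samples; the cause of other changes was not tested. Unfolding each gene at its widest gap and robust moderation changed no call of a member. The lost decimal mark limits every direction: a change over 3.16-fold shows as a smaller one or with its sign turned.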
